A study of Mus musculus with 21 samples.

Results

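Choroid plexus with Ins2 overexpression was compared with control choroid plexus in 11 of the 21 bulk RNA sequencing libraries of the series, 6 from the Ins2 group and 5 from the control group. All 11 came from wild-type (WT) mice of the C57BL/6J strain, and the controls are listed as receiving no treatment. The sources used here do not say how Ins2 was introduced, by which vector or promoter, into which cells, or how old the mice were, so effects of a procedure that only the Ins2 mice underwent and effects of Ins2 cannot be told apart. Every gene in the choroid plexus table was taken, 25239 symbols, of which 5641 had 0 reads in all 11 libraries and 14533 had a mean of at least 10 and were tested. Values are reads per gene divided by the authors' size factor for the library, here called scaled reads, and they are not corrected for gene length, so levels were compared between libraries and not between genes. The labels give each library as a separate sample but name no animals, so each p-value speaks only of the scatter among these samples, which may be technical. The remaining 10 libraries, of hypothalamus, were not used here.

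The choroid plexus hangs in the brain ventricles and consists of a single layer of epithelial cells around a core of leaky capillaries, fibroblasts and macrophages. Its epithelium moves ions and water to make cerebrospinal fluid, secretes transthyretin and growth factors, and joins its cells by tight junctions that separate blood from that fluid. Insulin acts through its receptor, encoded by Insr, and the adaptor proteins of the insulin receptor substrate family, which activate phosphatidylinositol 3-kinase and AKT and so keep FOXO transcription factors out of the nucleus. Mice have Ins1 and Ins2, the former a retroposed copy of the latter that is active in pancreatic beta cells.

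Ins2 rose 1.9-fold and Jchain, a gene of antibody-secreting cells, 17.1-fold in the Ins2 group, and no other gene passed the test across all genes with limma on all 11 libraries, equally weighted. The scores of interferon-stimulated and MHC class I genes lay above every control in 4 of the 6 Ins2 libraries and not in the other two, and none of these genes passed that test. Most genes on the epithelial, ion transport, junction and matrix lists had log2 fold changes slightly below 0, as did most of the longest genes.

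The Ins2 and Ins1 transcripts are shown because the values rest on telling them apart. Below are the first 150 coding bases of each, 5′ to 3′ from the start codon, from the GENCODE M21 transcripts on GRCm38, with bases that differ between them in capitals.
Ins2: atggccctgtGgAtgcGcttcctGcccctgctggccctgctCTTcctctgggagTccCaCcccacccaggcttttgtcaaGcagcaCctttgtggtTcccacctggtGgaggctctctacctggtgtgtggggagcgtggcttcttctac
Ins1: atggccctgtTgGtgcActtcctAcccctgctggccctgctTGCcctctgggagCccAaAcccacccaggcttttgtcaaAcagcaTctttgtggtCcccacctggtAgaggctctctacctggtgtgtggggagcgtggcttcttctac
Ins2-201 lies on chromosome 7, 142678659 to 142679726, minus strand, and Ins1-201 on chromosome 19, 52264297 to 52265476, plus strand. These stretches differ at 14 bases, and the whole coding sequences, 333 and 327 bases, are 90.7% identical with a longest shared run of 56 bases. Ins1 had 0 reads in all 11 libraries, and a count of 0 allows a level of up to 3 reads per library, counting error only. The sequence of the introduced Ins2 is not given, and the values per gene do not separate introduced from native transcripts.

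Ins2 was the gene overexpressed by design, and it rose in the Ins2 group. Control libraries 1 to 5 held 387, 394, 466, 401 and 501 scaled reads, and Ins2 libraries 1 to 6 held 676, 859.8, 870.3, 598, 1041 and 914. Every Ins2 library lay above every control, with the narrowest gap between Ins2 library 4 and control 5. The fold was 1.9, with a 95% interval of 1.59 to 2.27 (adjusted p = 0.00594 by limma, and p = 0.00433 by an exact two-sided permutation test), from 429.9 ± 50.7 (SD, n = 5) to 826 ± 162 (n = 6). Before scaling, these were 376 to 464 and 537 to 1105 reads. Control choroid plexus thus carried Ins2 reads in each library, and 7 of the 9 annotated Ins2 transcripts end by position 142679726, while the longest reaches 142743381 over the region between Ins2 and its neighbour Th; the values per gene do not separate them.

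Depth was 25950069 to 36289667 reads in genes per Ins2 library and 27648580 to 34892985 per control. Transthyretin, the main secreted protein of the epithelium, took 10.7% to 13% of reads, and the labelled tissue was recognisable in every library by it. Single libraries stood apart in the levels of genes that mark particular cell types or neighbouring brain. Control 2 held 119 of 13515 genes with a mean of at least 20 at over 2 times the next library (log2 of value + 5), against at most 2 in any other library, with myelin genes and the hypothalamic peptide gene Avp (577 against at most 6.58) among them. Control 5 was lowest in 18 of 29 macrophage and 15 of 36 fibroblast genes, and Ins2 library 4 in 19 of 28 endothelial genes. Results for those cell types are given with and without these libraries below. In bulk tissue, fewer cells of a type and less RNA per cell cannot be told apart.

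**Figure D1:**
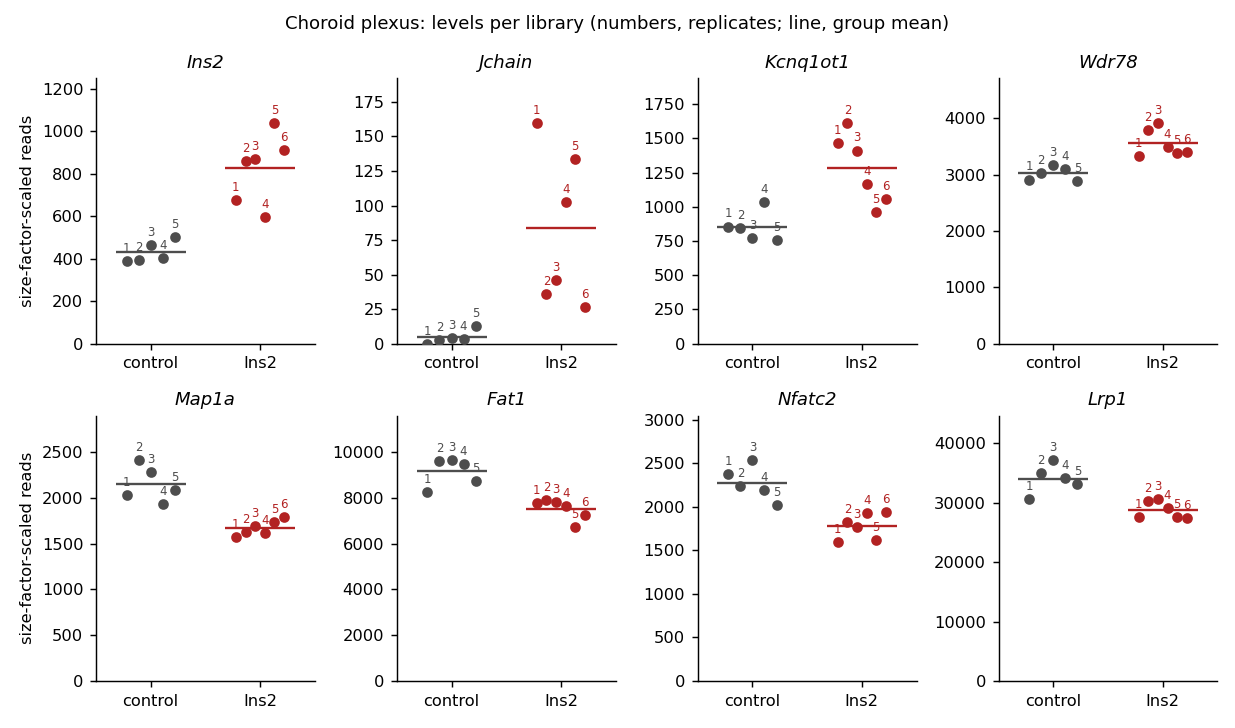
Scaled reads per library for 8 genes (y axes start at 0; control in grey, n = 5; Ins2 in red, n = 6; each point is a library numbered by replicate, and lines are group means). Ins2 and Jchain are the only genes past the adjusted threshold with limma; Ins2 spans 387 to 501 in controls and 598 to 1041 in the Ins2 group, and in Map1a, Fat1, Nfatc2 and Lrp1 every Ins2 library lies below every control.

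Beyond Ins2 itself, 1 gene passed the test across the transcriptome. With limma 2 genes, 0.0138% of those tested, rose and 0 fell at an adjusted p under 0.05. At an unadjusted p under 0.05 there were 369 genes higher (2.54%) and 534 lower (3.67%), together 6.21%. These are the shares to set beside the counts per gene list below. By edgeR on the recovered reads 2 again rose and 0 fell at an adjusted p under 0.05. The ranges of the groups did not overlap for 34 genes higher (0.234%) and 57 lower (0.392%). Such differences were mostly small, as 4 of the 34 and 1 of the 57 exceeded 2-fold. How many genes would separate in this way without any difference between the groups was not tested. A lack of overlap is therefore given below only as a description of the values. DESeq2 called 3 higher (0.0606%) and 31 lower (0.626%) among the 4951 genes to which its independent filter gave an adjusted p, and these are named as such below. DESeq2 gave no adjusted p to Ins2 or Jchain; without that filter it called 6 higher (0.0413%), Ins2 and Jchain among them, and 18 lower (0.124%).

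**Figure D2:**
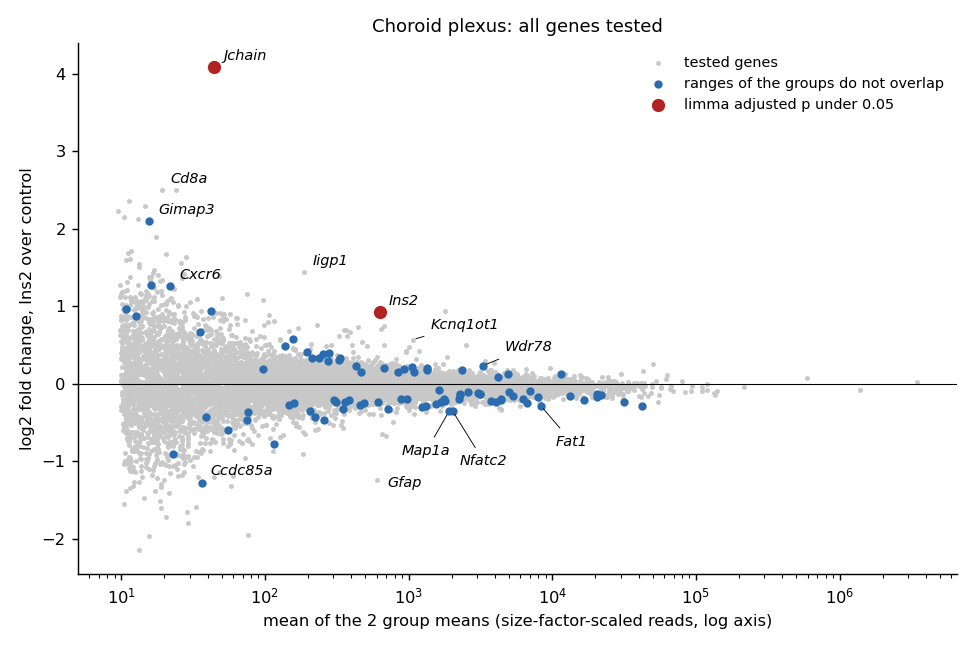
Log2 fold change, Ins2 over control, against the mean of both group means in scaled reads (log axis), 1 point per tested gene (14533). Red points are the 2 genes past the limma threshold, Ins2 and Jchain; blue points are the 34 higher and 57 lower genes whose ranges did not overlap, most of which lie within 1 log2 unit of 0.

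Jchain, the joining chain that links immunoglobulin A dimers and immunoglobulin M pentamers made by plasma cells, had the widest change of the genes that passed. Controls 1 to 5 held 0, 2.58, 4.35, 2.97 and 13 scaled reads and the Ins2 libraries 160.0, 35.5, 46.1, 102, 134 and 26.3. In reads that is 0 to 12 against 25 to 175, without overlap, although the Ins2 libraries spread over 6-fold among themselves. The fitted fold of 17.1, with a 95% interval of 7.12 to 40.9, had an adjusted p of 0.0131 by limma and an exact permutation p of 0.00216, the least that 462 splits can give, and it depends on the pseudocount, as controls are near 0. The limma call was lost without Ins2 library 1 (adjusted p = 0.0775), Ins2 library 4 (0.0795) or control 4 (0.0574), with log2 fold changes of 3.85, 3.97 and 4.09.

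Other genes of B and plasma cells did not pass. Beside Jchain, enough reads to be tested were found for 8 genes of the list, 4 above 0 and 4 below, with a median log2 fold change of 0.05 (all genes tested, -0.0045) that became -0.12 without control 5. Mzb1, an endoplasmic reticulum chaperone of plasma cells, was at 27.8, 21.5, 27.2, 16.8 and 20.5 in controls and 20 to 51.2 in the Ins2 group (fold 1.5; limma adjusted p = 0.823). Derl3, of secretory cells, was at 7.56 to 60.2 and 10 to 47.6. The groups overlapped for both. The surface marker Cd79b reached at most 7.6 scaled reads in any library, Tnfrsf17, the plasma cell survival receptor, at most 14.6, and the B cell marker Ms4a1 at most 0.942. Immunoglobulin constant region genes were on the list as written, but only 20 of its 29 genes were found in the table by symbol. No value for a constant region gene is given here. The summed level of the list, most of it the secretory regulator Xbp1, ran from 3223 to 3960.1 in controls and from 3315 to 5046 in the Ins2 group. The score of the list without Jchain, the mean log2 level of its tested members relative to the control mean, was 0.66, 0.19, 0.45, -0.58, 0.42 and -0.52 in Ins2 libraries 1 to 6 and 0.18, -0.04, 0.50, -0.07 and -0.57 in controls. Whether plasma cells account for the Jchain reads was not tested.

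Around Ins2 on distal chromosome 7, which holds clusters of imprinted genes, the noncoding RNA Kcnq1ot1 had the smallest p-value of all genes above 0 that did not pass. Kcnq1ot1 is transcribed antisense to Kcnq1 from the paternal copy and represses nearby genes on it. Controls 1 to 5 held 856, 846, 769, 1034 and 759 and the Ins2 libraries 1467, 1615, 1411, 1169.8, 963 and 1057 scaled reads, and only Ins2 library 5 lay below the highest control, number 4. The fold was 1.49 (95% interval 1.25 to 1.76; limma adjusted p = 0.274), and the gene passed with DESeq2 without its filter (adjusted p = 0.00185), without Ins2 library 5 (0.0465) and once the length trend described below was removed (0.0124). It spans chromosome 7, 143203458 to 143296549, minus strand, and 1.2% of its exon length is shared with antisense annotation, where reads of the partners cannot be told apart without the counting's strand setting. Cdkn1c, a cyclin-dependent kinase inhibitor of the same imprinted cluster (chromosome 7, 143458339 to 143461050), was at 11538, 10418, 10795, 10891 and 11629.9 in controls and 11725 to 12694 with a median of 12039 in the Ins2 group. Its groups did not overlap, at a fold of 1.1 (limma adjusted p = 0.645), and 30.7% of its exon length is shared with antisense annotation. Within 1000000 bases of Ins2 lay 27 other tested genes, 13 above 0 and a median (log2 fold change) of -0.0019; at an unadjusted p under 0.05 Kcnq1ot1 and Cdkn1c were higher and 0 lower. The flanking genes Th, tyrosine hydroxylase (22.7 to 54.6 in controls, 24.8 to 66.9 in the Ins2 group), and Igf2 overlapped between the groups, as did Kcnq1 itself (fold 1.03). These neighbours were looked up after their values were known.

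Among other genes above 0, a transcription factor, a clock gene and genes of signalling stood out by the naming rule without passing with limma. Per2, a repressor of the circadian clock, was at 978, 998, 1012, 1174 and 858 in controls and 1201, 1561, 1764, 1079, 1368 and 1213 in the Ins2 libraries, with only Ins2 library 4 inside the control range. Its fold was 1.35 (limma adjusted p = 0.414; called by DESeq2, adjusted p = 0.0179). Of the 22 clock genes tested 14 were above 0 (median log2 fold change 0.05). At an unadjusted p under 0.05, 2 were higher and 1 lower (all tested genes, 2.54% and 3.67%). Per1 (fold 0.984) and Dbp (0.999), targets of the same clock, overlapped between the groups. The hour of collection is not given. Ehf, an epithelial ETS transcription factor, was at 105, 155, 124, 105 and 144 in controls and 162, 187, 248, 179, 160.1 and 195 in the Ins2 libraries, without overlap (fold 1.49; limma adjusted p = 0.455). Six3, a homeobox factor of the forebrain, was also without overlap at 1220.4, 1237, 1209, 1266 and 1306 and 1372 to 1540.2 with a median of 1439 (fold 1.16). Mpc1, a subunit of the mitochondrial pyruvate carrier, and Cdk8, a kinase of the Mediator complex, had folds of 1.14 and 1.16 without overlap, with 23.1% of the Mpc1 exon length shared with antisense annotation. Larger folds came at lower levels: Col10a1, a collagen, at 5.15 to 25.8 and 25.6 to 49.4 (fold 2.94), the noncoding RNA Dancr at 65.4 to 96.7 and 95.9 to 167 (1.69), and the estrogen-binding receptor gene Gper1 at 34 to 77.3 and 71.1 to 90.5 (1.8); in each, 1 control lay inside the Ins2 range. Nefh, a neurofilament gene, was at 1388 to 1864 and 1691 to 2482 (fold 1.27; called by DESeq2, adjusted p = 0.0455).

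Genes below 0 with the smallest p-values were mostly long, and none passed with limma on the unweighted libraries. Map1a, a microtubule-binding protein, was at 2029.8, 2414, 2287, 1937 and 2084 in controls and 1575, 1625, 1697, 1617, 1741 and 1793 in the Ins2 libraries, with every Ins2 library below every control (fold 0.781; limma adjusted p = 0.1). Fat1, an atypical cadherin of epithelial contacts, stood at 8260.5, 9609.5, 9659.9, 9496 and 8758 and 6744 to 7890.2 with a median of 7706, again without overlap (fold 0.821; adjusted p = 0.19 with limma). Nfatc2, a calcium-regulated transcription factor, stood at 2382, 2243, 2539.9, 2199.7 and 2024 and 1595 to 1938 with a median of 1802 (fold 0.782; limma adjusted p = 0.19). These 3 and Fbxl20, a ubiquitin ligase subunit (fold 0.848), passed when limma weighted the libraries by quality (4 genes lower, 0.0275%), and all 4 were among the 31 that DESeq2 called lower. The DESeq2 calls also held Lrp1, an endocytic receptor of lipoproteins and proteases (controls 30678, 34939, 37210.0, 34177 and 33233; Ins2 27403 to 30598 with a median of 28419.5), whose groups did not overlap (fold 0.846; limma adjusted p = 0.385). Further DESeq2 calls were the actin regulator Tns1, the endothelial and epithelial junction protein Heg1, the transcriptional corepressor Spen and the adhesion receptor Adgrv1. Across the 31 the folds ran from 0.776 to 0.907 and the limma adjusted p from 0.1 to 0.564, and 17 of the 31 had ranges that did not overlap. Wider differences at low level were those of Ccdc85a (62.8, 46.5, 42.4, 64.4 and 41 in controls, 10.7 to 27.4 in the Ins2 group; fold 0.413; limma adjusted p = 0.385) and of Sytl5, a RAB27 effector of vesicle transport (133 to 176 and 56.7 to 117; fold 0.584), both without overlap.

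The direction of a difference varied with transcript length. For the 31 DESeq2 calls the median longest annotated transcript was 8101 bases, and for the 57 lower genes without overlap it was 6227, against 2472 for the 34 higher ones and 3354 for all 14239 tested genes with a length. Tested genes were split into eighths by that length, and the median log2 fold change was 0.01 in the shortest eighth (up to 1511 bases) and -0.07 in the longest (from 6333 bases), where 72.5% of genes were below 0. The longest eighth held 221 of the 534 genes lower at an unadjusted p under 0.05 and 27 of the 57 without overlap; the shortest held 22 and 2. The trend differed among Ins2 libraries: relative to the control mean the longest eighth had medians of -0.12, 0.04, -0.03, -0.03, -0.15 and -0.08 in Ins2 libraries 1 to 6 and -0.05, 0.03, 0.02, -0.01 and 0.02 in controls 1 to 5. Ins2 libraries 1, 5 and 6 were lowest there, and Ins2 library 2 was higher than every control. With the length trend of each library removed, 0 genes were lower and 3 higher (0.0206%), and the log2 fold changes shrank from -0.28 to -0.17 for Fat1, from -0.24 to -0.13 for Lrp1 and from -0.36 to -0.25 for Map1a, with Ins2 at 0.92 and 0.91. Nfatc2 went from -0.35 to -0.30 and Ccdc85a from -1.28 to -1.25. The part of RNA integrity, fragmentation or cell make-up in this trend was not tested.

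**Figure D3:**
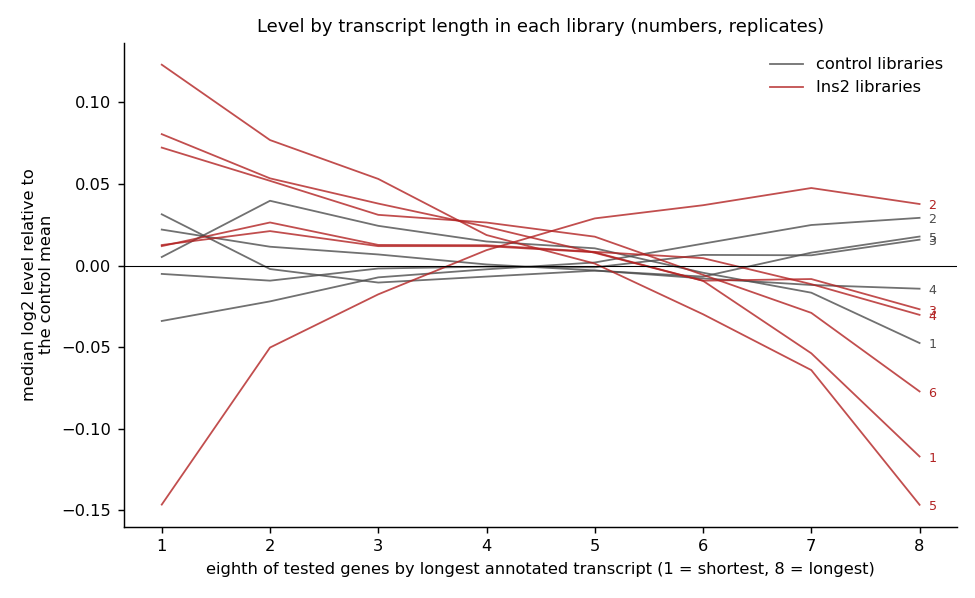
Median log2 level relative to the control mean in 8 equal groups of tested genes ordered by their longest annotated transcript (x axis, 1 shortest to 8 longest), 1 line per library (control grey, Ins2 red, replicate numbers at the right). Ins2 libraries 1, 5 and 6 fall with length, to -0.12, -0.15 and -0.08, while Ins2 library 2 runs the other way.

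Epithelial genes differed by little, and most lay below 0. Of the 36 epithelial genes 13 were above 0 and 23 below, with a median log2 fold change of -0.05 and 0 past the adjusted threshold, against 48.4% of all tested genes above 0 and 51.6% below. At an unadjusted p under 0.05, 0 were higher and 7 lower. F5, coagulation factor V, which choroid plexus epithelium makes in quantity, was at 51836, 61783, 62845, 55890.4 and 61428 in controls and 44519 to 56349 with a median of 49551 in the Ins2 group, where Ins2 libraries 2 and 3 lay inside the control range (fold 0.849; limma adjusted p = 0.528). Cdh3, P-cadherin, was at 2903, 3288, 2951, 3029 and 2725 and 2134 to 2742 with a median of 2541 (fold 0.835; limma adjusted p = 0.48). Folr1, the folate receptor that carries folate into the fluid, was at 22946 to 27331 and 21768 to 25118 (fold 0.919), and the developmental regulator Otx2 at 10989 to 13462 and 11562 to 13141 (1.05). The prolactin receptor gene Prlr had a fold of 0.9 and the serotonin receptor gene Htr2c one of 0.943, both with overlapping groups. Kcnj13, a potassium channel, was at 25694 to 34239 and 27328 to 41372, and 49.1% of its exon length is shared with antisense annotation. Beside these, the score of the list was -0.02, -0.01, 0.02, 0.00 and 0.02 in controls and -0.03, -0.04, -0.02, -0.10, -0.03 and -0.09 in the Ins2 libraries.

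Carriers and channels that make cerebrospinal fluid also lay mostly below 0. Of 24 genes of ion and water transport 7 were above 0 and 17 below (median log2 fold change -0.07), none past the adjusted threshold with limma. At an unadjusted p under 0.05, 0 were higher and 2 lower (all tested genes, 2.54% and 3.67%). The water channel Aqp1 was at 27586 to 29555 in controls and 27304 to 29732 in the Ins2 group (fold 0.979, 95% interval 0.916 to 1.05). The sodium, potassium and chloride cotransporter Slc12a2 had a fold of 0.924 (0.837 to 1.02), and the bicarbonate carriers Slc4a5 and Slc4a10 had 0.942 (0.866 to 1.02) and 0.922 (0.835 to 1.02). Of 29 solute and drug transporters 10 were above 0 (median -0.05).

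Tight junction and adhesion genes lay below 0 in 20 of 29 cases (median log2 fold change -0.08), against 51.6% of all tested genes. At an unadjusted p under 0.05, 5 were lower and 0 higher (all tested genes, 3.67% and 2.54%). The sealing proteins themselves lay close to 1: Cldn1 had a fold of 1 (95% interval 0.923 to 1.09), Cldn2 of 0.975 (0.897 to 1.06), Ocln of 0.949 (0.874 to 1.03) and the scaffold Tjp1 of 0.945 (0.87 to 1.03). The members that stood out were Fat1 and Amot, a scaffold that binds YAP at junctions. Amot was at 1390.3, 1400.2, 1539, 1536 and 1384 in controls and 1158, 1302, 1294, 1119.8, 1108 and 1132 in the Ins2 libraries, with no overlap (fold 0.817; limma adjusted p = 0.385; called by DESeq2, adjusted p = 0.0157). Cgnl1, paracingulin, was at 29989, 34163, 34370.3, 33380.1 and 32912 and 27564 to 30532 with a median of 28779.6 (fold 0.88; called by DESeq2, adjusted p = 0.0211), and control 1 lay inside the Ins2 range. The longest transcripts of Fat1, Amot and Cgnl1 are 14814, 6957 and 6754 bases, and without the length trend the log2 fold changes of Amot and Cgnl1 were -0.24 and -0.13, from -0.29 and -0.18. All of them fall in the longest eighth of tested genes, where 72.5% were below 0 and 221 of 1779 were lower at an unadjusted p under 0.05.

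Most cilia genes lay slightly above 0, while the score of their list overlapped between the groups. Choroid plexus epithelial cells carry tufts of cilia, and neighbouring ependymal cells beat theirs to move the fluid. Of 27 motile cilia genes 18 were above 0 (median log2 fold change 0.04), 4 higher and 0 lower at an unadjusted p under 0.05. The score of the list was 0.01, -0.06, 0.07, 0.19, -0.05 and -0.03 in Ins2 libraries 1 to 6, 3 of them above the control mean. In controls 1 to 5 it was 0.17, -0.09, -0.05, 0.05 and -0.07. Wdr78, an intermediate chain of the axonemal dynein, was at 2912, 3034, 3166, 3102 and 2882 in controls and 3335, 3797, 3922, 3484, 3391 and 3408 in the Ins2 libraries, all above the controls (fold 1.18; limma adjusted p = 0.385; called by DESeq2, adjusted p = 0.0165). Armc2, needed to assemble sperm tails and not on the list, was at 1252, 1309, 1249, 1282 and 1264 and 1330.2 to 1546 with a median of 1437, without overlap (fold 1.13). Cfap43 had a fold of 1.11 (limma adjusted p = 0.793). The regulator of ciliogenesis Foxj1 was at 5065 to 6234 and 4798 to 5977 (fold 0.954), and the long dynein heavy chain gene Dnah11 had a log2 fold change of -0.11, or 0.00 without the length trend. The ependymal list had 5 of 13 members above 0 (median -0.03).

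**Figure D4:**
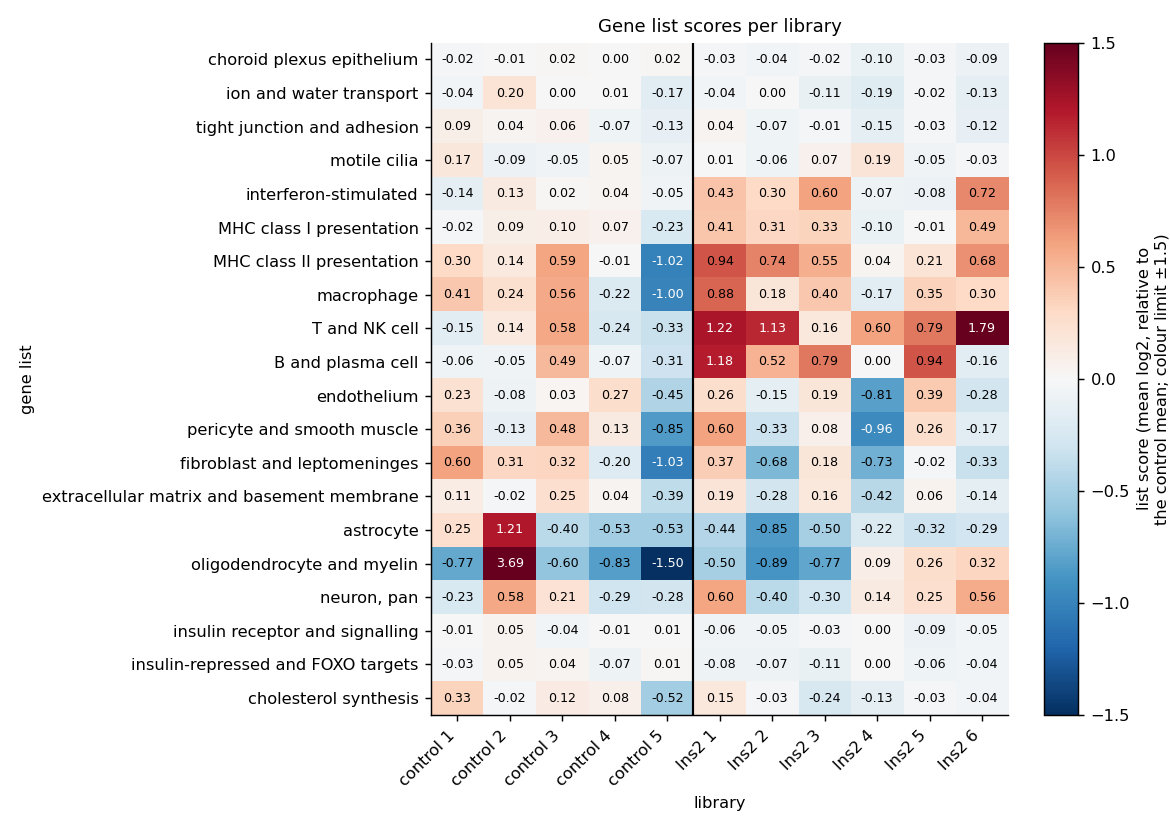
Scores of 20 gene lists (rows) in each library (columns; 5 control, then 6 Ins2), as the mean log2(value + 1) of the tested members minus the mean over controls; colours are limited at ±1.5 and each cell prints its score. Interferon-stimulated genes score 0.30 to 0.72 in Ins2 libraries 1, 2, 3 and 6 and -0.07 and -0.08 in libraries 4 and 5; control 2 reaches 3.69 for myelin and control 5 is lowest for macrophages.

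Immune gene lists lay mostly above 0, unevenly among the Ins2 libraries. Of 50 interferon-stimulated genes 43 were above 0 (median log2 fold change 0.20), against 48.4% of all tested genes. At an unadjusted p under 0.05, 10 were higher and 1 lower (all tested genes, 2.54% and 3.67%), and 0 passed the adjusted threshold with limma. The summed level of the list overlapped, at 37111 to 43386 in controls (median 41105) and 37801 to 50941 in the Ins2 group (median 40765). Their score was 0.43, 0.30, 0.60, -0.07, -0.08 and 0.72 in Ins2 libraries 1 to 6 and -0.14, 0.13, 0.02, 0.04 and -0.05 in controls, so 4 Ins2 libraries lay above every control and 2 did not. Iigp1, an immunity-related GTPase induced by interferon gamma, was at 183, 296, 533, 124, 36.7 and 557 in the Ins2 libraries and 38.1, 61.1, 57.6, 99 and 174 in controls (fold 2.72; limma adjusted p = 0.699). Ins2 libraries 3 and 6 held the highest values and library 5 the lowest of all 11. Irgm1, of the same family, was at 662, 780.4, 1024, 657, 519 and 1179 and 552, 568, 492, 465 and 667 (fold 1.42; limma adjusted p = 0.584). For Irgm1, Ins2 libraries 1, 4 and 5 lay below the highest control. Cxcl9, a T cell attractant under interferon gamma control, ranged from 0.942 in Ins2 library 5 to 157 in Ins2 library 6, with controls at 3.09 to 37.6. Ifit3, which type I interferon induces, had a fold of 1.13 with overlapping groups. Other members that the naming rule selects lay near 0. With each library left out in turn, log2 fold changes ran from -0.05 to 0.03 for Lgals3bp, -0.02 to 0.10 for Ifi27 and -0.004 to 0.06 for Parp12.

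Class I antigen presentation genes scored above every control in Ins2 libraries 1, 2, 3 and 6, and class II genes in libraries 1, 2 and 6. Of 21 MHC class I genes 18 were above 0 (median 0.20), 5 higher and 0 lower at an unadjusted p under 0.05. H2-K1, a class I heavy chain, was at 4124, 4253, 3821, 2989, 3377 and 4069.6 in the Ins2 libraries and 3003, 3252, 3399, 3038 and 2676 in controls, and only libraries 4 and 5 lay inside the control range (fold 1.22; limma adjusted p = 0.514), and class I paralogs can share reads. B2m, the light chain, was at 4565, 5144, 4184, 3338, 3571 and 5118 and 3567, 3988, 3498, 3390.2 and 3249.9 (fold 1.21). Nlrc5, the class I transactivator, was at 297, 397, 353, 222, 161 and 346 and 147, 203, 144, 171 and 176 (fold 1.69; limma adjusted p = 0.414), and without Ins2 library 5 it passed with limma (log2 fold change 0.92, adjusted p = 0.0465), as it did with DESeq2 without its filter (adjusted p = 0.024). For class II, which professional presenting cells carry, 7 of 8 genes were above 0 (median 0.70; 0.32 without control 5). Cd74, the invariant chain, was at 3029.9, 3271, 1785, 1258, 1750.0 and 2679 and 1519, 1244, 2166, 1043 and 439 (fold 1.91; limma adjusted p = 0.584). Ctss, the protease that trims the invariant chain, was at 500.3, 452, 483, 331, 425 and 483 and 334, 392, 357, 237 and 134 (fold 1.62; limma adjusted p = 0.515), and only Ins2 library 4 lay below the highest control.

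**Figure D5:**
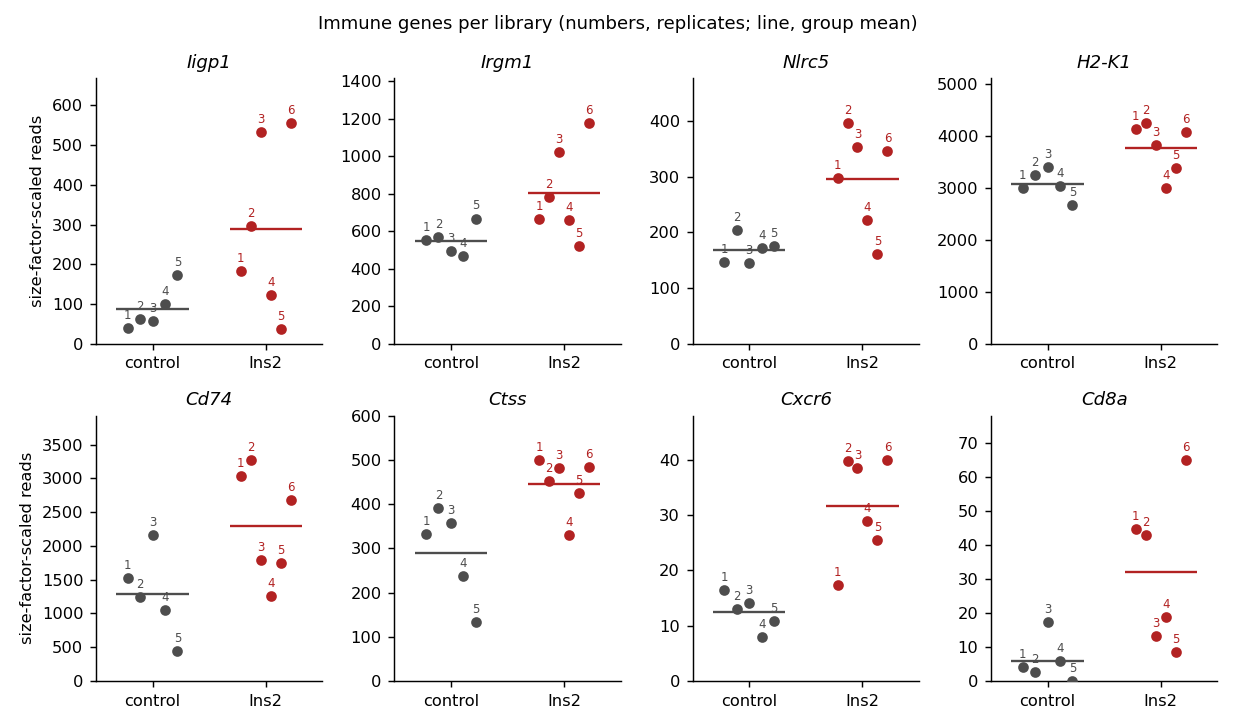
Scaled reads per library for 8 immune genes (linear axes from 0; control grey, n = 5; Ins2 red, n = 6; numbers are replicates, lines group means). Ins2 libraries 4 and 5 lie within or next to the control range for Iigp1, Irgm1, Nlrc5 and H2-K1, while Cxcr6 does not overlap between the groups; none of the 8 passed the adjusted threshold with limma on all libraries.

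Macrophage genes, which mark the main resident immune cells of the plexus, had 21 of 29 members above 0 (median log2 fold change 0.45), 5 higher and 0 lower at an unadjusted p under 0.05. The median was 0.13 without control 5, whose score was -1.0 against -0.22 to 0.56 in the other controls and -0.17 to 0.88 in the Ins2 libraries. Of the members with the highest scaled reads, Csf1r, the receptor for macrophage growth factor, was at 247 to 510.3 in controls and 336 to 583 in the Ins2 group (fold 1.14), Lyz2, lysozyme, at 138 to 645 and 274 to 703 (1.45), and Maf, a transcription factor, at 1904 to 2276 and 1968 to 2156 (0.977), and the groups overlapped for each. Ctss, given above with class II, is also on the macrophage list. Its log2 fold change ran from 0.44 to 0.83 with each library left out in turn. Ptprc, CD45 of all leukocytes, was at 52.5, 49.1, 44.5, 38.6 and 16.2 and 103, 91.8, 76.8, 36.7, 58.4 and 77.7 (fold 1.86; limma adjusted p = 0.645). Microglia genes had 8 of 10 above 0 (median 0.14; -0.10 without control 5), dendritic cell genes 5 of 7 (0.18), complement genes 12 of 18 (0.06) and chemokine and inflammation genes 13 of 19 (0.07). Of neutrophil and mast cell genes 2 of 16 had enough reads, and of red blood cell genes 1 of 8. With the macrophage score as a covariate the interferon-stimulated median was 0.15, that of class I 0.16 and that of class II 0.26.

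Lymphocyte genes had few reads. Of 28 T and NK cell genes on the list as written, 25 were found in the table by symbol. No value is given here for the T cell receptor constant genes on it. Only 8 of the 25 could be tested, 7 of them above 0 (median log2 fold change 1.02) and 3 higher at an unadjusted p under 0.05. As tested genes had to pass a mean of 10 over both groups, this count does not stand for the whole list. Cxcr6, a chemokine receptor of tissue-resident T cells, was at 17.4, 39.7, 38.4, 28.9, 25.4 and 39.9 in the Ins2 libraries and 16.5, 12.9, 14.1, 7.92 and 10.8 in controls, without overlap (fold 2.39; limma adjusted p = 0.501). Cd8a, of cytotoxic T cells, was at 44.8, 43, 13.2, 18.9, 8.48 and 65.1 and 4.12, 2.58, 17.4, 5.94 and 0 (fold 5.64; limma adjusted p = 0.456), and control 3 lay inside the Ins2 range. Gimap3, a GTPase of lymphocyte survival, was at 32.9, 11.6, 40.6, 13.4, 9.42 and 45.2 and 9.27, 7.75, 7.6, 3.96 and 0, without overlap (fold 4.28; limma adjusted p = 0.557). Cd3e, part of the T cell receptor complex, had at most 22.3 scaled reads, and Lck, the kinase next to that receptor, was at 14 to 26.8 in controls and 3.29 to 27.4 in the Ins2 group (fold 0.683). Slfn1, a Schlafen gene of T cells that fell below the filter, had 0 reads in all 5 controls and 4 to 17 reads in the Ins2 libraries; it passed with limma only when no filter was applied (adjusted p = 0.0113). Nlrc3, an inhibitor of T cell and innate signalling, was at 36.7 to 71.1 and 16.4 to 33.7, without overlap (fold 1.92).

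Stromal and vascular genes had no member past the threshold, and their medians moved with single libraries. For endothelium 9 of 28 genes were above 0 (median log2 fold change -0.08; -0.22 without control 5 and 0.07 without Ins2 library 4). Plvap, of the fenestrae of choroid plexus capillaries, was at 1073, 706, 1032, 408, 1283 and 659.7 in the Ins2 libraries and 801, 769, 765, 905 and 556 in controls, with Ins2 library 4 the lowest of all (fold 1.07). Pericyte and smooth muscle genes had 4 of 15 above 0 (median -0.09; -0.33 and 0.05 without the same libraries), and fibroblast and leptomeningeal genes 10 of 36 (median -0.13; -0.38 without control 5 and -0.01 without control 1). Dcn, decorin of fibroblasts, was at 843, 333, 812, 396, 525 and 335 and 1185, 426, 883, 416 and 297 (fold 0.896). Fn1, fibronectin, was at 161, 162, 183, 118, 148 and 102 and 317, 251, 274, 228 and 114 (fold 0.638; limma adjusted p = 0.614). The scores of the 3 lists reached -0.81, -0.96 and -0.73 in Ins2 library 4, the lowest Ins2 values, and -0.45, -0.85 and -1.03 in control 5, the lowest control values. A low stromal score thus occurred in each group, and the part of tissue make-up in these lists was not tested.

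Extracellular matrix and basement membrane genes were below 0 in 31 of 37 cases (median log2 fold change -0.10; -0.06 without the length trend and -0.04 without Ins2 library 4), 8 lower and 1 higher at an unadjusted p under 0.05. The score of the list was 0.19, -0.28, 0.16, -0.42, 0.06 and -0.14 in Ins2 libraries 1 to 6, 3 of them above the control mean, and 0.11, -0.02, 0.25, 0.04 and -0.39 in controls. Col8a2, a short-chain collagen of basement membranes, was at 17393, 17092, 18371, 18575 and 18207 in controls and 16911, 14892, 16387, 14697, 15716 and 14780.3 in the Ins2 libraries, without overlap (fold 0.867; limma adjusted p = 0.414; called by DESeq2, adjusted p = 0.0157). No list of receptors for the matrix was set, and those named here come from the 57 lower genes without overlap. They are Itga3, a laminin-binding integrin (fold 0.867), Itga1, a collagen-binding one (0.721), and Dag1, dystroglycan (0.887), with limma adjusted p of 0.455, 0.414 and 0.515. Without the length trend their log2 fold changes were -0.19, -0.37 and -0.14, from -0.21, -0.47 and -0.17. Fibrillar and microfibrillar collagen genes had 4 of 13 above 0 (median -0.11; -0.25 without control 5 and 0.02 without Ins2 library 4). Mmp2, a matrix protease, was the 1 member above 0 at an unadjusted p under 0.05 (fold 1.15).

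Genes of neighbouring brain were dominated by control 2. Astrocyte genes were below 0 in 20 of 21 cases (median log2 fold change -0.45), and the median was -0.10 without control 2, which held the highest value of 14 of them. Gfap, the astrocyte filament, was at 453, 4507, 112, 157 and 89.6 in controls and 144, 111, 127, 236, 119 and 104 in the Ins2 libraries (fold 0.424; limma adjusted p = 0.823). Controls 1 and 2 were the 2 highest, controls 3 and 4 lay among the Ins2 libraries, and control 5 was the lowest of all 11. All 22 oligodendrocyte and myelin genes were highest in control 2, and their median changed sign without it, from -0.26 to 0.53. The list summed to 3298 to 59563 in controls and 3173 to 6729 in the Ins2 group. Pan-neuronal genes had 10 of 19 above 0 (median 0.01; 0.17 without control 2); Snap25, of synaptic release, was at 35.6 to 87.8 and 17.4 to 148, and the neuronal nuclear marker Rbfox3 at most 18.9 in any library. The oligodendrocyte precursor list had 2 of 10 above 0 (median -0.14; 0.13 without control 2), excitatory neuron and hippocampus genes 5 of 10 (0.06), inhibitory neuron and striatum genes 7 of 9 (0.10; -0.12 without control 5) and thalamus, habenula and hindbrain genes 4 of 6 (0.02). With the brain score of each library as a covariate limma called the same 2 genes, Ins2 (adjusted p = 0.008) and Jchain (0.0158).

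Insulin signalling was followed only through RNA levels of genes for the receptor, the adaptors and the targets. The activity of the pathway's proteins was not measured. Of 47 genes of the pathway 19 were above 0 (median log2 fold change -0.03, or -0.01 without the length trend). At an unadjusted p under 0.05, 0 were higher and 7 lower (all tested genes, 2.54% and 3.67%), and none passed the adjusted threshold with limma. Insr was at 3649, 3749.7, 4248, 3562 and 3474 in controls and 3096, 3991, 3525, 3209, 2893 and 3084 in the Ins2 libraries, of which libraries 2 and 3 overlapped the controls (fold 0.88; limma adjusted p = 0.729; log2 fold change -0.18, or -0.10 without the length trend). Igf1r, the related receptor for insulin-like growth factors, was at 8402, 8625, 8643, 8353 and 7904 and 7235 to 9002 with a median of 7584 (fold 0.923, log2 -0.12, or -0.02 without the length trend). The adaptors Irs1 and Irs2 had folds of 0.931 (95% interval 0.844 to 1.03) and 1.02 (0.895 to 1.17), and 30.9% of the Irs1 exon length is shared with antisense annotation. Pik3r1, the regulatory subunit of phosphatidylinositol 3-kinase, was at 4811, 5363, 5188, 5254 and 5578 and 4048 to 5100.1 with a median of 4507 (fold 0.874; limma adjusted p = 0.557). Akt1 stood at a fold of 1 (0.908 to 1.11) and Foxo1 at 1.03 (0.937 to 1.13).

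Among 23 genes that insulin represses or FOXO factors induce, 8 were above 0 (median -0.05, or -0.01 without the length trend). At an unadjusted p under 0.05, 1 was higher and 2 lower (all tested genes, 2.54% and 3.67%). Pdk4, a brake on pyruvate oxidation, was at 1426 to 1668 in controls and 1273 to 1718 in the Ins2 group, and Txnip, an inhibitor of glucose uptake, at 1415 to 2002 and 1424 to 1947, with overlapping groups. Fbxo32, a ubiquitin ligase that FOXO induces in wasting muscle, was at 78.3, 188, 79.3, 49.5 and 84.2 and 49.4, 68.6, 41.7, 52.3, 37.7 and 70.4 (fold 0.604; limma adjusted p = 0.718), while Bcl6, another FOXO target, had a fold of 1.28. Insulin-induced lipid and glycolysis genes had 7 of 24 above 0 (median -0.03), with Srebf1, the lipogenic regulator that insulin induces in liver, at a fold of 1.02 (0.924 to 1.14). Cholesterol synthesis genes had 5 of 23 above 0 (median -0.06; -0.19 without control 5 and 0.04 without control 1), as 17 of them were highest in control 1 and 17 lowest in control 5.

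In the insulin-like growth factor system 4 of 13 genes were above 0 (median -0.10; -0.18 without control 5 and -0.05 without Ins2 library 4), and 3 of the 6 Ins2 libraries scored above the control mean. Igf2, which choroid plexus secretes into the fluid, was at 133425, 144353, 147168, 150206 and 145104 in controls and 139007, 132696, 137714, 125164, 144191 and 131273 in the Ins2 libraries (fold 0.937, 95% interval 0.858 to 1.02). Igf2r, the receptor that clears IGF2, was at 9118, 10579, 10671, 9489 and 9781 and 8129.9 to 9759 with a median of 8354 (fold 0.871; limma adjusted p = 0.514; log2 -0.20, or -0.12 without the length trend). Igf1 was low, at 71.1, 76.6, 101, 99 and 86.3 and 61.3, 58.7, 65.8, 55.7, 62.2 and 70.4, and did not overlap between the groups (fold 0.726; limma adjusted p = 0.718). Genes for proteins that cut and store prohormones were below 0 in 16 of 17 cases (median -0.12; -0.10 without control 2 and -0.18 without control 4). Pcsk2, the convertase that cleaves proinsulin in beta cells, was present at 1597 to 1881 in controls and 1586 to 1860.4 in the Ins2 group (fold 0.982, 0.893 to 1.08), as was Cpe, which trims the cut ends (1807 to 2721 and 1518 to 2344). Pcsk1, the other convertase of proinsulin, had at most 4.45 scaled reads in any library.

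Stress and housekeeping lists had medians near 0. Endoplasmic reticulum stress genes had 8 of 31 above 0 (median log2 fold change -0.05, or 0.003 without control 2), heat shock genes 16 of 20 (0.03) and immediate early genes 14 of 23 (0.01). At an unadjusted p under 0.05, 0, 0 and 3 of them were higher and 2, 0 and 0 lower (all tested genes, 2.54% and 3.67%). Nuclear genes of oxidative phosphorylation had 21 of 32 above 0 (0.01) and cytosolic ribosomal protein genes 25 of 46 (0.01), with Ins2 library 2 lowest for 34 of the latter. Glucocorticoid response genes had 5 of 17 above 0 (-0.07), cell cycle genes 9 of 18 and nuclear and noncoding RNAs 13 of 24 (0.01). At an unadjusted p under 0.05, 1, 1 and 4 of them were higher and 1, 1 and 1 lower. Splicing regulators had 23 of 30 above 0 (0.04), with Tra2a, a splicing activator, at 1242 to 1796 in controls and 1539 to 1730.3 in the Ins2 group (fold 1.2; limma adjusted p = 0.564). The nuclear noncoding RNA Malat1 was at 46479.5, 38778, 48714, 52537 and 42625 and 57752, 58166, 59809, 58165, 50102 and 45249.5 (fold 1.2; limma adjusted p = 0.582), and Neat1 had a fold of 1.02. Of the oxidative phosphorylation, ribosomal protein and splicing genes, 1, 0 and 2 were higher at an unadjusted p under 0.05 and 0 lower. No member of these lists passed with limma.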

How the data were processed

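Messenger RNA of 11 choroid plexus samples was isolated with a PicoPure kit, selected on poly-T beads and turned into directional libraries (dUTP in the second strand), per the labels' protocols. The submitters' processing notes name HISAT2, featureCounts, DESeq2 and the builds GRCm38 and mm10, without versions or the strand setting of the counting. The deposited signal values are gene counts that the authors divided by a DESeq2 size factor per library, per the labels' description; whole reads were recovered from the step of each library for 100% of values in every library (within 0.02 reads), 25950069 to 36289667 reads per library.

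Genes with a mean of at least 10 were tested with limma 3.58.1 (R 4.3.3) on log2(value + 1), with empirical Bayes, no block and Benjamini-Hochberg adjustment over all 14533 genes; a fold is on that scale, which understates low genes. edgeR 4.0.16 and DESeq2 1.42.0 on the recovered reads, array weights, other pseudocounts and filters, equal totals, covariates, a replicate block and leaving out libraries were alternatives; removing the trend of each library with transcript length (loess, span 0.5) and DESeq2 without its independent filter were added after seeing the data. Only the limma fit was tested on simulated counts. List scores are means of log2(value + 1) over tested members, minus the control mean. Positions, lengths, overlaps and sequences come from GENCODE M21 on GRCm38, in which 24323 of 25239 symbols were found, and alignments used Biopython 1.88. The closest libraries of a group, controls 3 and 4, differed by more than sampling noise (chi-square of 7.01 per gene).

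Genes named are Ins2, Ins1, Insr, Igf1r, Irs1, Irs2, Igf2, Kl and Ttr, those past any tool's threshold, the 15 smallest p-values each way, the 10 largest non-overlapping differences each way, and per list the 4 highest, the 2 with the smallest p and any without overlap. Outside that rule, chosen after their values were seen, are Akt1, Aqp1, Armc2, Cd3e, Cd79b, Cdk8, Cdkn1c, Cfap43, Cxcl9, Dag1, Dbp, Dcn, Derl3, Dnah11, Folr1, Foxo1, Htr2c, Ifit3, Iigp1, Itga3, Kcnj13, Lck, Mmp2, Mpc1, Ms4a1, Ocln, Otx2, Pcsk1, Pcsk2, Pdk4, Pidd1, Plvap, Prlr, Rbfox3, Slc4a10, Slc4a5, Slfn1, Snap25, Srebf1, Tjp1, Tnfrsf17, Txnip, Avp, Kcnq1 and Th. The comparison and the lists were chosen with earlier results of these data known. Hypothalamus libraries were not used, and some items are not reported here.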

Additional observations from a re-analysis of the deposited data

Results flagged for a closer look

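In 26 of the 302 groups of values tested, 1 library lay farther from the rest of its group than Dixon's test at the 95% level allows. The values were 46 list scores and 105 genes given in the text, in each group. That level passes about 1 in 20 for normally distributed values, which was not checked here. Many of the genes were chosen after their values were seen, and the naming rule includes genes in which 1 library lay far above the others. The share expected by chance is therefore not known for these 26 flags. Among list scores, as log2 differences from the control mean, these were oligodendrocyte and myelin at 3.69 in control 2 (nearest -0.60), oligodendrocyte precursor at 2.09 in control 2 (nearest -0.42), inhibitory neuron and striatum at -1.01 in control 5 (nearest 0.09), prohormone processing and granule at 0.61 in control 2 (nearest -0.07), heat shock at 0.21 in Ins2 library 2 (nearest 0.04) and nuclear and noncoding RNA at -0.44 in Ins2 library 2 (nearest -0.03).

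Among single genes, in scaled reads, each library is given with its value and the next. Ins2 library 2 stood apart for Cd3e at 22.3 against 6.68 in the nearest library of its group, Igf1r at 9002 against 7698, Kcnj13 at 41372 against 31693 and Slc4a5 at 38501 against 33257. Ins2 library 4 stood apart for Gfap at 236 against 144 in the nearest library of its group and Pcsk1 at 4.45 against 1.05. Ins2 library 5 stood apart for Ms4a1 at 0.942 against 0 in the nearest library of its group. Ins2 library 6 stood apart for Cd79b at 6.3 against 2.48 in the nearest library of its group and Itga1 at 163 against 218. Control 1 stood apart for Cd3e at 12.4 against 2.58 in the nearest library of its group and Dnah11 at 2487 against 2792. Control 2 stood apart for Fbxo32 at 188 against 84.2 in the nearest library of its group, Gfap at 4507 against 453, Nlrc3 at 16.4 against 29.3, Tjp1 at 2300.4 against 2111 and Tra2a at 1796 against 1358. Control 3 stood apart for Cd79b at 7.6 against 1.72 in the nearest library of its group and Dancr at 96.7 against 71.2. Control 4 stood apart for Sytl5 at 176 against 141 in the nearest library of its group. Control 5 stood apart for Srebf1 at 7269 against 9432 in the nearest library of its group. Control 2 and Ins2 library 2 account for the most of these, the Pcsk1, Cd3e and Cd79b values are of few reads, and that of Ms4a1 is a single read, which alone sets it apart.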

How the results depend on the processing

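The counts of genes past the threshold, 2 higher and 0 lower, came out within 1.5 times of that with both other pseudocounts, no filter (3 higher), equal totals, edgeR, both covariates, the length correction (3 higher) and without controls 2 and 5 together. Array weights gave 4 lower, DESeq2 gave 31 lower and, without its filter, 18 lower and 6 higher; a minimum mean of 50, at which Jchain was not tested, gave 1 higher. DESeq2 with its filter gave no adjusted p for Ins2 (log2 fold change 0.94) or Jchain (4.21). Leaving out each library in turn gave 1 to 4 higher (4 without Ins2 library 5, with Kcnq1ot1 and Nlrc5 added) and 0 lower throughout, with Ins2 at 0.85 to 1.01 and past the threshold each time, and Jchain at 3.59 to 4.54 and not past it without Ins2 library 1, Ins2 library 4 or control 4. With the replicate block 2 genes were higher and 0 lower (Ins2 0.89, Jchain 4.36), and Ins2 library 6 has no partner there. The deviations of same-numbered libraries from their group means correlated at 0.14, -0.14, 0.09, -0.02 and -0.15, none best with its own number except number 3. The labels give no batch, and these correlations cannot exclude a litter or day shared by same-numbered libraries. No called result changed direction; among the 344 tested genes that the naming rule selects or the text gives, the sign of an uncalled one changed in 0 to 47 per alternative, the most without controls 2 and 5, and among the 46 list medians in 0 to 12. The cause of the differences between tools was not tested. Genes of a few reads, Jchain in controls among them, limit what depth can show.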

Other observations

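Further genes whose groups did not overlap had no place in the lists above, and none passed with limma. Pidd1, a scaffold of p53-dependent cell death, was at 235, 324, 307, 325 and 294 scaled reads in controls and 379.5, 327, 381, 363, 441 and 351 in the Ins2 libraries (fold 1.26; limma adjusted p = 0.584). Sptlc2, a subunit of the enzyme that starts sphingolipid synthesis, was at 3810.5, 3954, 4367, 4196 and 3983 and 3503, 3665, 3501, 3529.6, 3417 and 3299 (fold 0.859; limma adjusted p = 0.385; called lower by DESeq2, adjusted p = 0.0109). Hif3a, a hypoxia-inducible factor subunit, was near the filter at 5.16 to 8.63 in controls and 10.1 to 22.6 in the Ins2 group (fold 1.95; limma adjusted p = 0.801). Aldh1a1, a retinaldehyde dehydrogenase, overlapped between the groups, as controls held 81.4, 145, 10.9, 17.8 and 19.4 and the Ins2 libraries 14.6, 10.7, 13.2, 14.5, 6.59 and 7.35, controls 1 and 2 were the high values, and DESeq2 without its filter called it lower (adjusted p = 0.0261) where limma did not (adjusted p = 0.645).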
